A study of Mus musculus with 4 samples.

Results

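A set of 10 genes of fibroblast growth factor (FGF) signalling were followed in the embryonic mouse neocortex. They were found by gene symbol in the deposited table, where all 10 were present among 40630 genes. They comprise 4 ligands (Fgf8, Fgf15, Fgf17 and Fgf18), 3 receptors (Fgfr1, Fgfr2 and Fgfr3) and 3 genes that FGF signalling is known to switch on (Spry1, Spry2 and Etv5). RNA was sequenced from neocortex dissected at E13.5 on a C57BL/6 background. The cKO-labelled group held 2 libraries of genotype Upf2fl/fl Emx1-Cre+ (numbered 4 and 5), and the control group held 2 libraries of littermates of genotype Upf2fl/+ Emx1-Cre- (numbered 8 and 9). Both groups carry a floxed allele, but the number of floxed alleles and the presence of Cre differ together, so their effects cannot be told apart. Emx1-Cre recombines in the dorsal telencephalon, so cells of other origin in the dissected tissue keep Upf2. Upf2 encodes an adaptor of nonsense-mediated mRNA decay. The question was which transcripts differ when it is deleted from the cortex. Whether the libraries came from different embryos is not stated, so p-values measure only the spread between these samples, which may be technical.

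FGFs are secreted proteins that bind receptor tyrosine kinases and drive the Ras-MAPK cascade. In the early forebrain Fgf8, Fgf17 and Fgf18 form a subfamily made at the rostral midline, where they pattern the cortex from front to back. Fgf15 is another ligand of the embryonic forebrain, and Fgfr1, Fgfr2 and Fgfr3 are the receptors of cortical progenitors. Active receptors induce ETS transcription factors such as Etv5 and inhibitors such as the Sprouty proteins, which damp the cascade in return.

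In the cKO-labelled libraries the transcripts of Fgf17 and of the feedback inhibitor gene Spry1 were lower, while no receptor passed the test. Of the 9 members that could be tested 2 fell and none rose (limma, Benjamini-Hochberg adjusted p under 0.05), and at an unadjusted p under 0.05 the counts were also 2 and 0. Across all 15107 tested genes 8.14% were called, 5.24% as lower and 2.90% as higher. Of these 15107 genes 3439 had an unadjusted p under 0.05 (limma) in either direction, a share close to that of the members. Among the 9 tested members the 2 groups did not overlap for 4, Fgf17 and Spry1 on the low side and Fgf15 and Spry2 on the high side, against 57.6% of all tested genes (34.1% lower and 23.5% higher), so a lack of overlap alone says little here. The median log2 fold change of the 9 members was -0.09, beside -0.16 for all tested genes. Fgf8 did not reach the minimum mean of 1 TPM (transcripts per 1000000), and Fgf17 reached it through its level in the controls alone.

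Libraries differed in ways that the groups do not describe. Depth, recovered from TPM and exon length, was 33537843 to 41680052 reads per library. Control library 9 differed from control library 8 along the GC content of genes (Spearman correlation -0.76 over 15100 genes, which are not independent replicates), and the fold change between the groups followed GC content as well (0.54). Upf2 itself had 27.8 and 42.2 TPM in cKO-labelled libraries 4 and 5 and 23.7 and 41.3 TPM in controls 8 and 9, a value over the whole gene that does not check the deletion. The groups are therefore named by their labels. All 10 radial glia markers and all 8 projection neuron markers were above 0 in every library, so markers of the labelled tissue were present throughout. Their levels were not equal. Emx1 had 84.9 and 116 TPM in cKO-labelled libraries 4 and 5 against 191 and 130 TPM in controls 8 and 9. Tbr1 had 180 and 190 against 134 and 111 TPM, and neither passed the test. Of the radial glia markers 2 were called lower (Hes1 and Emx2), and no projection neuron marker was called. Markers of neighbouring tissue moved with the groups. Summed TPM over 14 cortical hem and choroid plexus markers was 7.08 and 9.79 in cKO-labelled libraries 4 and 5 against 2140 and 2357 in controls 8 and 9, and over 11 meningeal markers it was 8.02 and 3.98 against 459 and 255. Summed TPM over 16 ganglionic eminence and interneuron markers was 1229 and 641 against 137 and 267.

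Because Fgf8 and Fgf17 are close relatives, it was checked whether reads could be assigned to either. Over the coding sequences of Fgf8 (804 bases) and Fgf17 (648 bases) the longest identical run was 20 bases, and no stretch of 31 bases was shared between the transcripts of any 2 members. The 60 coding bases around that run are shown here from GENCODE M21 transcripts, 5′ to 3′, with the 9 positions that differ in capitals:
Fgf8: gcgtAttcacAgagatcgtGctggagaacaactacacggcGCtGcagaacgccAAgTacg
Fgf17: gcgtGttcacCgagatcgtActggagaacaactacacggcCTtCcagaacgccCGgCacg
The stretch covers coding bases 539 to 598 of Fgf8, on chromosome 19, and 380 to 439 of Fgf17, on chromosome 14. The longest identical run with Fgf18 was shorter, 14 bases for Fgf8 and 15 bases for Fgf17. A read of 31 bases or more therefore cannot fit 2 of these ligands without a mismatch.

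Fgf17, a ligand of the rostral midline that acts on frontal cortex, changed most among the members. The gene (ENSMUSG00000022101.6, chromosome 14, 70636203 to 70642268 in GRCm38) had 0.23 and 0.38 TPM in cKO-labelled libraries 4 and 5 and 17.5 and 9.13 TPM in controls 8 and 9. These values rested on 4 and 7 recovered reads against 378 and 171. Both cKO-labelled libraries were far below both controls, and the controls themselves differed. Mean TPM was 0.304 ± 0.101 (SD, n = 2) against 13.3 ± 5.94 (SD, n = 2), a 43.9-fold higher level in controls. On the log2(TPM + 1) scale, which understates the change of a gene this low, the fold change was -3.40 ± 0.37 (SE; limma adjusted p = 8.21e-18). Only 27 of the 15107 tested genes had a more negative fold change. Fgf17 reached the minimum mean TPM through its controls alone, so the filter favoured a fall. Passes among the filtered fits are therefore not separate support. Fgf17 passed in every alternative fit to all 4 libraries, but by less in some. Its limma adjusted p was 2.01e-04 after removal of the GC trend and 0.0306 with no filter on low TPM, the largest of the alternatives. With single libraries left out in turn, the fold change ran from -3.83 to -2.96.

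Fgf8, the best known ligand of the rostral patterning centre (ENSMUSG00000025219.13, chromosome 19), was close to the limit of detection. It was listed at 0 in both cKO-labelled libraries, at 1.16 TPM in control library 8 and at 0.067 TPM in control library 9, or 0, 0, 20 and 1 recovered reads. Control library 8 alone stood above a floor of 3 reads per library. With each cKO-labelled library set to that floor (0.218 and 0.201 TPM), the control mean of 0.614 TPM was 2.93-fold higher. That ratio rests on control library 8 and takes the control reads as exact. Control library 9 lay below the floor of the cKO-labelled libraries, so the ratio is not a bound on a difference between the groups. In the fit with no filter on low TPM Fgf8 stood at -0.60 and did not pass (limma adjusted p = 0.375).

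Fgf18, known from the rostral midline and later from cortical plate neurons (ENSMUSG00000057967.12, chromosome 11), had 1.24 and 2.98 TPM in cKO-labelled libraries 4 and 5 against 2.77 and 2.66 TPM in controls 8 and 9. Library 4 was the low one and library 5 lay above both controls, so the groups overlapped. The fold change was -0.32 (limma adjusted p = 0.595, 95% interval -1.01 to 0.37), and without cKO-labelled library 4 its sign turned, to 0.10. The subfamily of Fgf8, Fgf17 and Fgf18 together had 1.47 and 3.35 TPM against 21.5 and 11.9 TPM. Fgf17 made up 15.8% and 11.2% of that sum in the cKO-labelled libraries and 81.7% and 77.0% in controls, while Fgf18 made up 84.2% and 88.8% against 12.9% and 22.4%.

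Fgf15, a ligand of embryonic neural progenitors (ENSMUSG00000031073.6, chromosome 7), went the other way without passing the test. It had 22.6 and 19.8 TPM in cKO-labelled libraries 4 and 5 and 10.8 and 16.4 TPM in controls 8 and 9. Both cKO-labelled libraries were above both controls, by a gap smaller than the difference within the control pair. The fold change was 0.63 ± 0.38 (SE; limma adjusted p = 0.301), with values of 0.35 to 0.91 and adjusted p of 0.0604 to 1.0 over 14 alternatives. Without control library 8 it was 0.35 and without control library 9 it was 0.91. An antisense gene, Gm26793, covers 24.9% of the exon bases of Fgf15 and had 4.13 and 2.65 TPM against 1.72 and 1.65 TPM, so without a stated strand setting part of the reads cannot be assigned. The makeup of the 4 ligands therefore differed between the libraries while their sum differed less. Summed TPM was 24.1 and 23.1 in cKO-labelled libraries 4 and 5 and 32.2 and 28.2 in controls 8 and 9, and Fgf15 made up 93.9% and 85.5% of it against 33.4% and 58.0%.

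**Figure D1:**
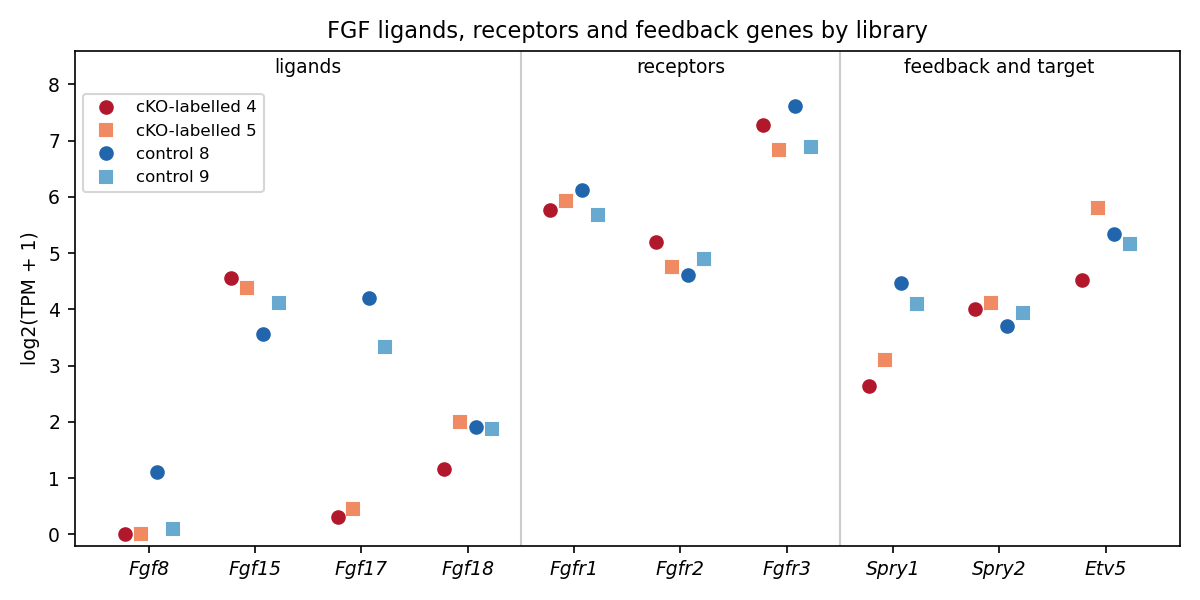
Level of each member in each of the 4 libraries, as log2(TPM + 1) on the y axis, with the genes ordered by role on the x axis. Fgf17 and Spry1 show both cKO-labelled libraries (red and orange) below both controls (blue), and Fgf8 lies at 0 in both cKO-labelled libraries.

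Bulk RNA cannot tell fewer cells of a type from less RNA per cell, and this holds for Fgf17. All 14 tested hem and choroid plexus markers and all 10 tested meningeal markers fell alongside Fgf17, with 0 TPM for the choroid plexus gene Kcne2 in cKO-labelled library 4 and for the meningeal gene Aldh1a2 in library 5. Their part in the result was not tested. The markers of septum and rostral midline, the known source of the ligand, did not move one way. Of 6 tested, 3 fell (Zic1, Zic4 and Zic5) and 2 rose (Six3 and Nkx2-1, which is also a ganglionic eminence gene). The remaining gene, Zic2, did not pass (-1.01, limma adjusted p = 0.0509), with 25.1 and 39.1 TPM in cKO-labelled libraries 4 and 5 against 69.1 and 59.5 TPM in controls 8 and 9. Each Zic gene of the list was thus lower in both cKO-labelled libraries than in both controls, as were 34.1% of all tested genes. Zic1 had 9.05 and 58.6 TPM in cKO-labelled libraries 4 and 5 against 73.9 and 105 TPM in controls 8 and 9, and Six3 had 16.5 and 7.44 TPM against 2.47 and 4.54 TPM. Summed over the 6 genes, TPM was 99.6 and 127 against 176 and 211. The calls of Zic1, Zic4 and Nkx2-1 used SEs of 0.35 to 0.39, pooled over genes. From each gene's own libraries the SEs were 1.31 to 1.68, so these calls are weaker than the test makes them.

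The receptors were the most abundant members, and their levels overlapped between the groups. Fgfr3, the receptor with a high caudal level in the cortex (ENSMUSG00000054252.18, chromosome 5), had 154 and 114 TPM in cKO-labelled libraries 4 and 5 and 195 and 117 TPM in controls 8 and 9. Fgfr1, a receptor of radial glia (ENSMUSG00000031565.18, chromosome 8), had 53.7 and 60.2 TPM against 69.0 and 50.2 TPM. Fgfr2, which is also expressed by cortical progenitors (ENSMUSG00000030849.18, chromosome 7), had 35.8 and 26.1 TPM against 23.6 and 28.9 TPM. For each receptor the cKO-labelled and control libraries lay among each other. On the opposite strand, G630022F23Rik covers 13.9% of the exon bases of Fgfr3 and had 8.44 and 4.50 TPM against 3.585 and 2.065 TPM. Ctbp2, on the same strand, covers 3.04% of those of Fgfr2 and had 32.8 and 37.5 TPM against 38.0 and 56.05 TPM. How reads in the shared bases were counted is not given.

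The fold changes of the receptors were small against their error. Fgfr3 stood at -0.19 (95% interval -0.87 to 0.49), Fgfr1 at -0.05 (-0.73 to 0.63) and Fgfr2 at 0.22 (-0.49 to 0.93), with limma adjusted p of 0.759, 0.945 and 0.735. The signs of Fgfr1 and Fgfr3 turned after median-of-ratios scaling, to 0.15 and 0.01, so neither has a direction in these data. The intervals reach up to 0.93 on the log2 scale, so equal levels are not shown. Of the summed receptor TPM Fgfr3 made up 63.3% and 56.8% in cKO-labelled libraries 4 and 5 and 67.7% and 59.7% in controls 8 and 9. Fgfr1 made up 22.04% to 30.1% of the sum and Fgfr2 8.21% to 14.7% over the 4 libraries. The order Fgfr3, Fgfr1, Fgfr2 was the same in each library.

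**Figure D2:**
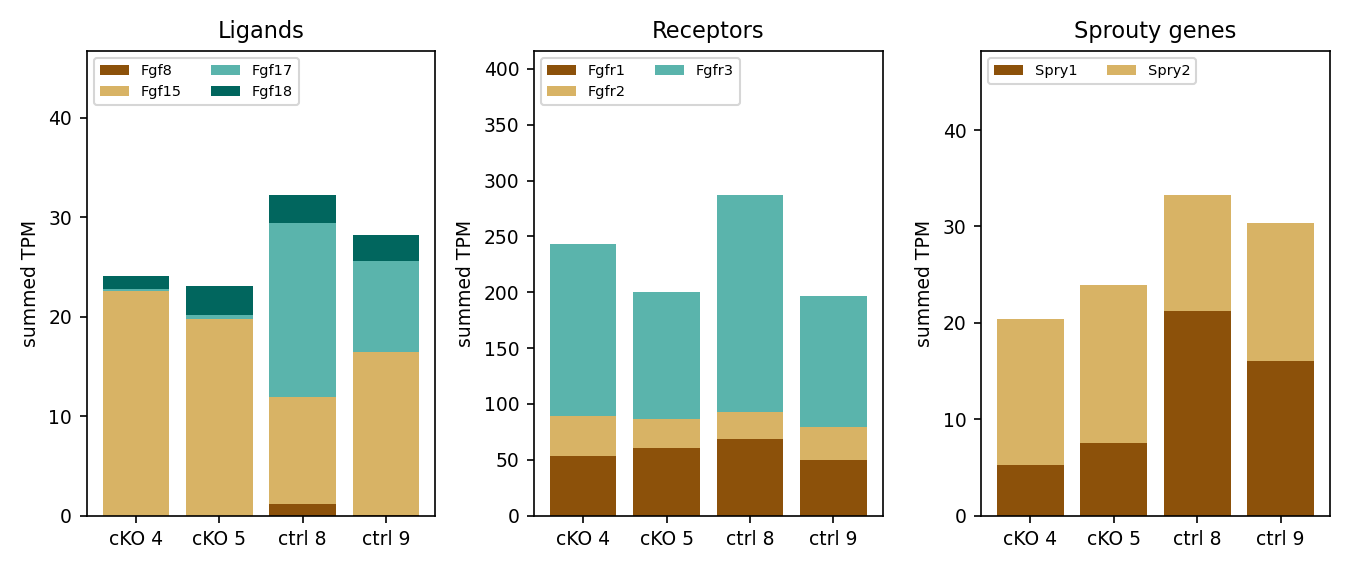
Summed TPM (y axis) of the ligands, the receptors and the 2 Sprouty genes in each library, with each bar divided by gene. In the cKO-labelled libraries nearly all ligand TPM is Fgf15, the receptor bars keep their order of shares, and Spry1 takes 25.7% and 31.5% of the Sprouty sum against 63.8% and 52.9% in controls.

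Spry1, a Sprouty inhibitor of the Ras-MAPK cascade that FGF signalling induces, was the second member that fell. The gene (ENSMUSG00000037211.12, chromosome 3, 37639947 to 37644598 in GRCm38) had 5.23 and 7.55 TPM in cKO-labelled libraries 4 and 5 and 21.2 and 16.1 TPM in controls 8 and 9, from 155, 242, 787 and 517 reads. Both cKO-labelled libraries were below both controls, and the gap was larger than the difference within either pair. Mean TPM was 6.39 ± 1.64 (SD, n = 2) against 18.6 ± 3.65 (SD, n = 2), which is 2.92-fold higher in controls, and the fold change was -1.41 ± 0.39 (SE; limma adjusted p = 0.00664). Leaving out cKO-labelled library 4 gave -1.19 (limma adjusted p = 1.0) and leaving out library 5 gave -1.64 (0.433), both short of the threshold, in fits whose spread comes from the control pair alone. The fit with no filter on low TPM did not call it either (limma adjusted p = 0.152). Adjusted p ranged from 0.00252 to 1.0 over 14 alternatives. The antisense gene Gm42922, which covers 24.4% of the exon bases of Spry1, had at most 0.478 TPM in any library. The hem, choroid plexus and meningeal markers given beside Fgf17 fell alongside Spry1 as well. Of 7 endothelial markers 1 was called lower (Tek), beside 5.24% of all tested genes, and 6 had a fold change below that of the median gene. Tek, Pecam1, Cdh5 and Kdr were each lower in both cKO-labelled libraries than in both controls, as were 34.1% of all tested genes. Pecam1 (-0.764), Cdh5 (-0.997) and Kdr (-0.886) did not pass the test. Cldn5 (0.143), Esam (-0.206) and Flt1 (-0.183) overlapped between the groups. The summed TPM, to which Cldn5 gave the largest part, overlapped as well, at 104 and 87.5 against 152 and 97.0. The part of these tissues in the level of Spry1 was not tested.

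Spry2, the other abundant Sprouty gene of the cortex (ENSMUSG00000022114.5, chromosome 14), did not follow Spry1. It had 15.1 and 16.4 TPM in cKO-labelled libraries 4 and 5 and 12.05 and 14.3 TPM in controls 8 and 9, so its cKO-labelled libraries were slightly above both controls. The fold change was 0.25 ± 0.38 (SE; limma adjusted p = 0.715, 95% interval -0.50 to 1.00). The 2 Sprouty genes together had 20.4 and 24.0 TPM against 33.3 and 30.3 TPM. A difference in response between Spry1 and Spry2 was not tested.

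The 250 bases before the RefSeq start of Spry1 and of Spry2 are shown because these inhibitors of the same cascade had different values. They are from RefSeq on GRCm38.p6, 5′ to 3′ on the strand of the gene, at chr3:37639697-37639946 (plus strand) for Spry1 and chr14:105896820-105897069 (minus strand) for Spry2. The letters GGAA, the core of the sites that ETS factors such as Etv5 bind, were searched on both strands and are in capitals:
Spry1: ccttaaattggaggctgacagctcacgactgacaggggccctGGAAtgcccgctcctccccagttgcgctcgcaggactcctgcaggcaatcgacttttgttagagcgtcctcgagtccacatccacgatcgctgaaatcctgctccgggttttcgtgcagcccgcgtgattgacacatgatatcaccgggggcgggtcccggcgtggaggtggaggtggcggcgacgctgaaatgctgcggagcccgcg
Spry2: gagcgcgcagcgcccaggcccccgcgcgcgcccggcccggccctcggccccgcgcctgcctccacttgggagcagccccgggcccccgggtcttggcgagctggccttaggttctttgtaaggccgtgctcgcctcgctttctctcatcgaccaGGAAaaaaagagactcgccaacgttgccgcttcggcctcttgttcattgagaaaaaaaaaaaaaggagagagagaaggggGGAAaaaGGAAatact
The window of Spry1 held 1 match and that of Spry2 held 3, and 93.4% of 32851 RefSeq promoter windows of that length held at least 1. The longer letters CCGGAA, which contain the core, were in neither window and in 12% of all windows. Both windows had a GC content of 62.4%. A match in these letters is a description and not a binding site. RefSeq windows were matched by symbol for 6 members, namely Fgf18, Fgfr2, Fgfr3, Spry1, Spry2 and Etv5.

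Etv5, an ETS transcription factor gene induced by FGF signalling (ENSMUSG00000013089.15, chromosome 16), varied more within the cKO-labelled pair than between the groups. It had 21.9 and 55.1 TPM in cKO-labelled libraries 4 and 5 and 39.4 and 35.0 TPM in controls 8 and 9. Library 4 was the lowest and library 5 the highest of the 4 libraries. The fold change was -0.09 (limma adjusted p = 0.899, 95% interval -0.79 to 0.61). That interval uses a spread pooled over genes (SE 0.36), which is below the SE from the gene's own libraries (0.65). Leaving out cKO-labelled library 4 gave 0.56 and leaving out library 5 gave -0.74. A processed pseudogene, Gm4798, shares 30.3% of the 31-base words of Etv5 transcripts. It had 0.52 and 1.33 TPM against 1.11 and 0.743 TPM, and how reads that fit both were treated is not given.

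Other genes of the pathway, picked after their values were seen, were set beside Etv5. Its relative Etv4 had 2.12 and 10.9 TPM in cKO-labelled libraries 4 and 5 against 8.91 and 6.60 TPM in controls 8 and 9. Il17rd, which encodes the FGF signalling inhibitor Sef, had 2.82 and 9.30 TPM against 8.71 and 9.26 TPM. In Etv5, Etv4, Il17rd and Fgf18 library 4 was below the other 3 libraries. Library 4 was also the lowest in Spry1, Dusp6, Flrt3, Sp8, Emx2 and Lhx2. It was not the lowest in Spry2, Dusp4, Spred2, Spred3, Dusp14, Cbl or Nf1. Nor was it in Etv1, another relative, which had 3.75 and 9.62 TPM against 3.01 and 8.08 TPM, lowest in control library 8. The share of all tested genes with library 4 lowest was not counted, so the pattern is not shown to be particular to these genes. Library 4 also had the highest level of the ganglionic eminence gene Nkx2-1, with 44.2 TPM against 3.73 TPM in library 5 and 0.22 and 1.11 TPM in controls, and the lowest level of Zic4, with 0.589 TPM against 10.7, 14.8 and 18.3 TPM. The part of ventral tissue in these values was not tested.

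**Figure D3:**
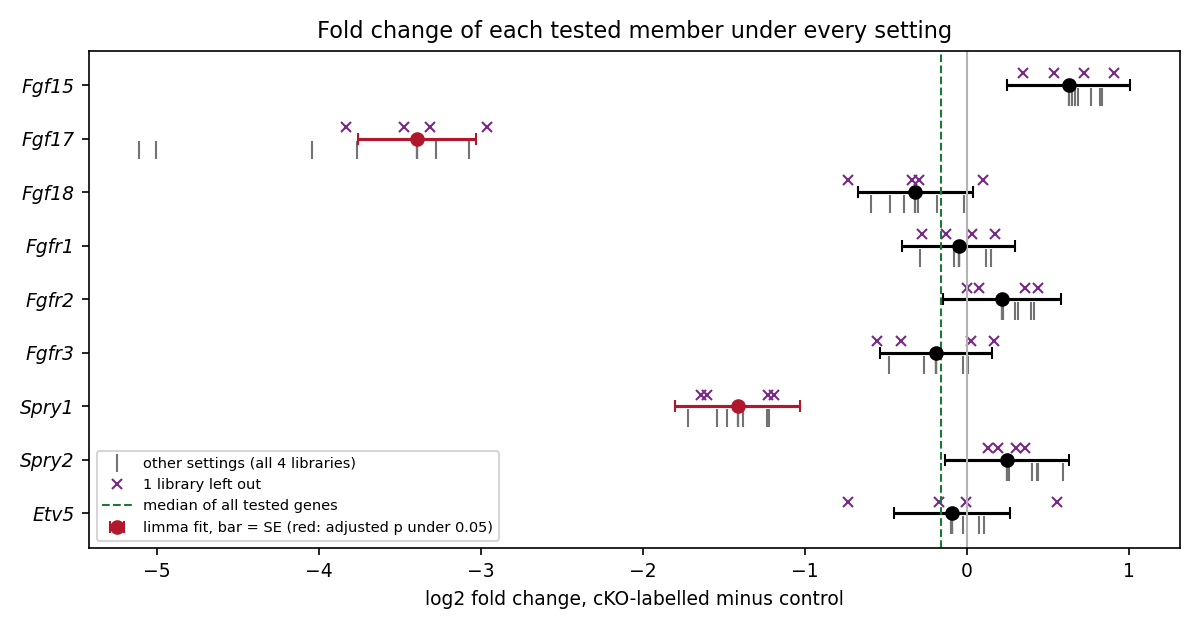
Log2 fold change (cKO-labelled minus control, x axis) of the 9 tested members, with the SE of the limma fit as a bar, grey ticks for the other settings and crosses for fits without 1 library. Fgf17 stays at -2.96 or lower in every fit and Spry1 at -1.19 or lower, whereas the values of Fgfr1, Fgfr3, Fgf18 and Etv5 lie on both sides of 0.

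Ordered by mean TPM over the 4 libraries, the members ran Fgfr3 (145), Fgfr1 (58.3), Etv5 (37.8), Fgfr2 (28.6), Fgf15 (17.4), Spry2 (14.5), Spry1 (12.5), Fgf17 (6.82), Fgf18 (2.41) and Fgf8 (0.307). TPM are per length, which allows genes to be set side by side. They are not corrected for GC content, along which the libraries differed, and the members run from 46.2% GC (Spry2) to 62.8% (Fgf8). The order is therefore approximate. Fgfr3 (113.6 to 195 TPM) lay above the range of Fgfr1 (50.2 to 69.0 TPM) without overlap. The ranges of Fgfr1 and Etv5, of Etv5 and Fgfr2, of Fgf15 and Spry2, of Spry2 and Spry1, of Spry1 and Fgf17, and of Fgf17 and Fgf18 overlapped, so these neighbours are not separated. The places of Spry1 and Fgf17 depend on the group. Spry1 was above Spry2 in both controls and below it in both cKO-labelled libraries, and Fgf17 was above Fgf18 in both controls and below it in both cKO-labelled libraries.

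Genes with the pattern most like that of the 2 called members were taken by the Euclidean distance of their centred log2(TPM + 1) values over the 4 libraries. For Fgf17 the nearest were Hspb8, a small heat shock protein gene (distance 0.285), Osr1, a transcription factor gene of mesenchyme (0.304), and Aqp1, the water channel gene of choroid plexus (0.414). Aqp1 had 2.43 and 3.97 TPM in cKO-labelled libraries 4 and 5 against 43.9 and 27.9 TPM in controls 8 and 9, and Osr1 had 0.095 and 0 TPM against 17.0 and 7.60 TPM. For Spry1 the nearest were Dmrta2os (0.0718), Gm11736 (0.0822) and Gm32679 (0.108). Gm11736 had only 1 and 4 recovered reads in cKO-labelled libraries 4 and 5 against 23 and 14 in controls 8 and 9. Gm32679 had 2 and 4 against 24 and 15. Both reached the minimum mean TPM through the controls alone, as did Osr1. Dmrta2os had 37.6 and 49.0 TPM against 132 and 98.1 TPM. With 4 libraries many genes share a pattern by their order alone.

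Around the members, 68 other genes of the pathway were examined in 5 lists, and 51 were tested. Of these 1 rose and 4 fell, against 2.90% and 5.24% of all tested genes, and their median was 0.03. At an unadjusted p under 0.05 (limma) the counts were 6 and 6, a share close to that of all tested genes (3439 of 15107).

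Of 18 other ligand genes 5 were tested, 1 rose and none fell, also at an unadjusted p under 0.05, where 2 were higher and 0 lower (limma). Fgf3, a ligand of the embryonic brain, had 1.81 and 2.77 TPM in cKO-labelled libraries 4 and 5 against 0.101 and 1.51 TPM in controls 8 and 9. Its fold change of 0.97 (limma adjusted p = 0.0433) rested on control library 8. It was 0.37 without that library, and the call ended under 6 of 13 alternatives. The other tested ones were Fgf11, Fgf12, Fgf13 and Fgf14, whose proteins stay inside the cell and bind sodium channels. Fgf13, the most abundant of them, had 65.4 and 57.0 TPM against 33.8 and 38.4 TPM and did not pass (0.74, limma adjusted p = 0.182). It passed after removal of the GC trend (1.09, limma adjusted p = 0.0168). Its fold change was 0.65 without control library 8 and 0.83 without control library 9.

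Of 9 receptors, co-receptors and FGF-binding proteins outside the members 5 were tested, 1 was called lower and none higher, at an unadjusted p under 0.05 and with limma's voom on recovered reads as well. Flrt3, a membrane protein gene known in Xenopus to promote FGF receptor signalling, had 12.1 and 12.5 TPM in cKO-labelled libraries 4 and 5 against 27.1 and 53.8 TPM in controls 8 and 9 (-1.56 ± 0.37 (SE), limma adjusted p = 0.00107). The control pair differed more than the cKO-labelled pair. Its call ended without cKO-labelled library 4 or 5 and with no filter on low TPM, with adjusted p of 6.16e-04 to 0.844 over 14 alternatives. Flrt2 and Fgfbp3, an FGF carrier protein gene, stood at -0.43 and 0.16 and did not pass. The value of Flrt2 was 0.07 after removal of the GC trend and -0.84 without control library 8. That of Fgfbp3 was -0.20 without control library 8.

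None of 19 genes of the adaptors and the Ras-MAPK relay passed in limma or with voom. An unadjusted p under 0.05 (limma) was seen for 4, all higher, a share close to that of all tested genes (3439 of 15107 in either direction). Their median was -0.11, near that of all genes. Map2k2, which encodes a MAPK kinase, had 131 and 126 TPM in cKO-labelled libraries 4 and 5 against 103 and 52.9 TPM in controls 8 and 9, with control library 9 apart. The adaptor gene Frs3 had 19.4 and 23.3 TPM against 12.3 and 10.1 TPM (0.87, limma adjusted p = 0.142). It passed after median-of-ratios scaling (1.06, adjusted p = 0.0320), and stood at 0.41 after removal of the GC trend (0.221). Mapk3, which encodes the kinase ERK1, had 220 and 223 TPM against 218 and 119 TPM. Without control library 8, which leaves control library 9 alone in its group, the fold change was 1.27 for Map2k2, 1.00 for Frs3 and 0.89 for Mapk3.

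Of 15 feedback inhibitors and targets outside the members 1 was called lower and none higher, at an unadjusted p under 0.05 and with voom as well. Dusp6, which encodes the phosphatase that inactivates ERK and is an established readout of FGF signalling, had 5.42 and 7.41 TPM in cKO-labelled libraries 4 and 5 against 13.8 and 21.2 TPM in controls 8 and 9. Both cKO-labelled libraries were below both controls. The fold change was -1.31 ± 0.39 (SE; limma adjusted p = 0.0155), close to that of Spry1. The call ended without cKO-labelled library 4 or 5, without control library 9 (-1.02, adjusted p = 0.0979) and with no filter on low TPM, with adjusted p of 0.0043 to 1.0 over 14 alternatives. Dusp4, a related phosphatase gene and the most abundant of the list, had 203 and 200 TPM against 162 and 164 TPM and did not pass (0.30, limma adjusted p = 0.605). Spry4, the remaining Sprouty gene with a role in FGF feedback, had 1.77 and 2.36 TPM against 2.75 and 1.82 TPM.

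**Figure D4:**
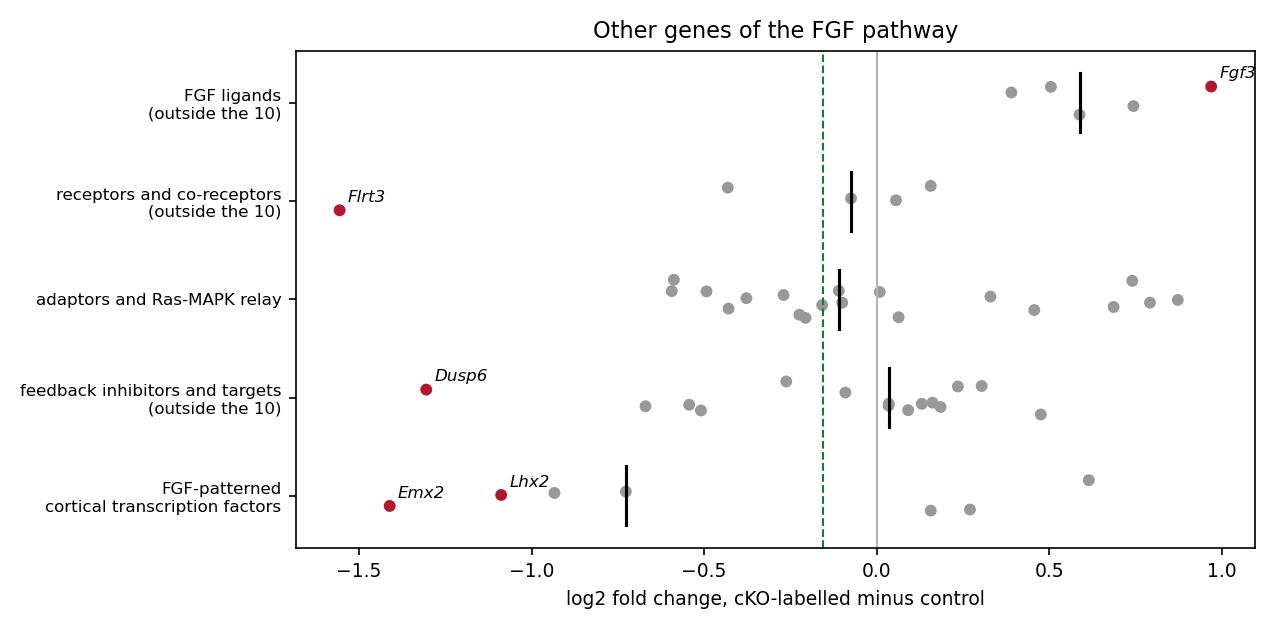
Log2 fold change (cKO-labelled minus control, x axis) of the 51 other tested pathway genes, by list, with called genes in red, list medians as black bars and the median of all tested genes as a dashed line. Of the genes called, Flrt3, Dusp6, Emx2 and Lhx2 are lower and Fgf3 is higher.

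Among 7 cortical transcription factors whose graded level FGF signalling sets or which oppose it, 2 fell and none rose. At an unadjusted p under 0.05 (limma) 4 were lower and 0 higher, beside 3439 of all 15107 tested genes in either direction. Emx2, which is known to restrict Fgf8 and to favour caudal identity, had 42.0 and 52.3 TPM in cKO-labelled libraries 4 and 5 against 112 and 143 TPM in controls 8 and 9 (-1.41 ± 0.35 (SE), limma adjusted p = 0.00158). Lhx2, the selector gene that keeps cortex from becoming hem, had 161 and 190 TPM against 378 and 369 TPM (-1.09, limma adjusted p = 0.0297). Both were lower in each cKO-labelled library than in each control. The call of Lhx2 ended under 5 of 14 alternatives, among them median-of-ratios scaling (adjusted p = 0.153) and each cKO-labelled library left out, and the call of Emx2 ended without cKO-labelled library 4 or 5 and with no filter on low TPM. Sp8, which FGF8 induces at the rostral pole, had 5.83 and 11.03 TPM against 13.4 and 19.9 TPM and did not pass (-0.93, limma adjusted p = 0.118). Nr2f1, a caudal factor that FGF signalling lowers, had 209 and 97.6 TPM against 155 and 106 TPM.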

How the data were processed

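Values for 40630 genes in 4 libraries were deposited by the authors as TPM (transcripts per 1000000, the sum of each library). Per the labels' protocols, DNase-treated RNA was made into stranded total RNA libraries. Reads were aligned to mm10 with STAR, per the submitters' processing notes. How genes were counted, with which strand setting and annotation, and how TPM were computed is not given in the sources used here.

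Gene models were taken as GENCODE M21 (GRCm38), a release inferred from the values and not stated in the labels. Within a library, TPM times merged exon length rose in whole steps for 100% of values (tolerance 0.05 reads), which gave the recovered reads. The 349 genes without an M21 length have none. Symbols that a spreadsheet had converted to dates (27) were looked up again by ID.

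The test covered genes of mean TPM 1 or more and was run on log2(TPM + 1) with limma 3.58.1 in R 4.3.3 (intensity trend, two-sided, Benjamini-Hochberg over all 15107 genes, threshold 0.05). Prior degrees of freedom were infinite, so standard errors and 95% intervals come from a spread pooled over genes, not a gene's own replicates. The test was checked on simulated data. Of the calls 35.6% were higher, and 56.2% after median-of-ratios scaling, 57.2% after quantile normalization, 46.4% after removal of a GC trend and 54.9% with limma's voom on recovered reads. The median gene, at -0.16, moved to 0.02, -0.01, -0.01 and -0.01.

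Named genes were the members, Upf2, per pathway list the 2 tested genes of smallest p, the most abundant and those called, and the 3 nearest in pattern to each of the 2 members of smallest p. Levels of marker genes are given where their list moved with a member, and also for Emx1, Tbr1 and genes of the septum and rostral midline list. The levels of Etv4, Etv1, Spry4, Sp8 and Nr2f1 were added after their values were seen. The members and lists were chosen with earlier results of these data known.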

Additional observations from a re-analysis of the deposited data

How the results depend on the processing

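Of 14 alternatives, the count of called genes (1229) was 178 with no filter on low TPM and 642 at a mean TPM of at least 5. With 1 library left out it ranged from 176 (without cKO-labelled library 4; 269 without library 5) to 7379 (without control library 8). The count of called members (2) was 1 with no filter and 1 to 2 without 1 library. Fgf17 was called in each of these fits. The count of other pathway genes called (5) was 0 with no filter and ranged from 0 to 21 without 1 library, with 0 without either cKO-labelled library and 21 without control library 8.

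The sign turned for 8 named genes that did not pass with the main settings. Median-of-ratios scaling put Fgfr1 at 0.15, Fgfr3 at 0.011 and Etv5 at 0.11, voom put Fgfr1 at 0.12 and Etv5 at 0.075, and removal of the GC trend put Flrt2 at 0.072. With 1 library left out the range was -0.28 to 0.18 for Fgfr1, -0.55 to 0.17 for Fgfr3 (0.027 without cKO-labelled library 5), -0.74 to 0.56 for Etv5, -0.73 to 0.098 for Fgf18, -0.26 to 0.52 for Upf2, -0.20 to 0.52 for Fgfbp3 and -1.39 to 0.045 for Il17rd. The cause was not tested.

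No paired analysis was possible because the groups share no replicate numbers. Depth limits Fgf8, with at most 20 reads in a library, and the cKO-labelled values of Fgf17, with 4 and 7 reads.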
